A study of Mus musculus with 12 samples.

Results

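Polycomb group genes and the deubiquitinase pair Asxl1 and Bap1 were followed in mouse hematopoietic stem cells (HSCs) of 4 genotypes. The 10 genes, chosen by symbol, were Ezh1, Ezh2, Eed, Suz12, Bmi1, Cbx7, Ring1, Rnf2, Asxl1 and Bap1, out of 18546 genes in the deposited table. All 10 passed the filter on low values, an RPKM (read count scaled to gene length and library depth) of at least 1 in at least 3 libraries, as did 15478 genes in all. The cells were SLAM HSCs (CD150+, CD48-, lineage-negative, Sca1+, cKit+) sorted from the marrow of C57BL/6 animals at 10 to 12 weeks of age, and total RNA was sequenced after removal of ribosomal and mitochondrial RNA. The genotypes were wild type, NrasG12D/+ (1 activated allele of a Ras GTPase gene), Tet2+/- (1 lost allele of a gene for a 5-methylcytosine dioxygenase) and the double mutant NrasG12D/+;Tet2+/-, with 3 libraries each. How NrasG12D was switched on, which part of Tet2 was deleted and whether cells of several mice were pooled are not given in the sources used here, and p-values measure the spread between these libraries.

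Polycomb repressive complex 2 (PRC2) methylates lysine 27 of histone H3, with Ezh2 or its paralog Ezh1 as the catalytic subunit and Eed and Suz12 as obligate partners. Polycomb repressive complex 1 (PRC1) holds the ubiquitin ligase Ring1 or Rnf2, which marks histone H2A, together with a Pcgf protein such as Bmi1 and, in its canonical form, a Cbx protein such as Cbx7 that reads the PRC2 mark. Bap1, bound by Asxl1 in the Polycomb repressive deubiquitinase (PR-DUB), removes the H2A ubiquitin. In HSCs, Bmi1 and Ezh1 are known for maintaining self-renewal, and EZH2 and ASXL1 are recurrently mutated in human myeloid disease, as are NRAS and TET2.

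The libraries held 19205045 to 36890942 reads in genes. All 10 listed HSC markers had a row, and their summed level was 189 to 251 RPKM per library. Cd48, which the gate selects against, was at 0 reads in every wild-type library and reached at most 1.28 RPKM in any library. The 4 megakaryocyte markers summed to 19.2 to 45.7 RPKM in NrasG12D/+ and 20.7 to 30.3 in the double mutant, against 13.9 to 14.9 in wild type and 11.5 to 14.3 in Tet2+/-. The granulocyte-monocyte markers (6 of 7 listed had a row) summed to more, 89.0 to 127 RPKM over the libraries. Most of this sum was Lyz2, at 90.9 RPKM on average in wild type, where Prtn3 averaged 9.1, S100a9 1.07 and Mpo 0.055. Elane and Ngp were at 0 reads in every wild-type and NrasG12D/+ library, and Elane reached 5.80 RPKM in Tet2+/-. Of 4 listed markers of T and NK cells only 1, Nkg7, had a row. It ran from 0 to 11.1 RPKM in NrasG12D/+ and from 1.89 to 7.66 in the double mutant. In Tet2+/- it ran from 0.54 to 3.79 RPKM and in wild type from 0.24 to 2.45, so the genotypes overlapped. In these bulk samples, fewer cells of a type and less RNA per cell cannot be told apart. Gene-level RPKM did not check the Tet2 labels: Tet2 stood at 4.835 to 7.03 RPKM in libraries with 2 intact alleles and at 4.09 to 5.67 in Tet2+/- and double mutant libraries, a log2 difference of -0.13 (95% interval -0.44 to 0.18). Nras itself stood at 4.76 to 6.83 RPKM over the 12 libraries, and the genotypes are named as labelled. Read from Xist, 1 library was male in each genotype but Tet2+/-, which had 2.

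None of the 10 genes passed an adjusted p of 0.05 (limma, Benjamini-Hochberg over all 15478 genes) in any of the 8 comparisons, and none did with voom on recovered reads or with sex as a covariate. Few genes of any kind did. NrasG12D/+ against wild type called 0.00646% of all genes, Tet2+/- against wild type 0.00646%, the double mutant against wild type 0.00646%, against NrasG12D/+ 0% and against Tet2+/- 0.00646%. The interaction of the alleles called 0.0129%, the NrasG12D allele averaged over both Tet2 backgrounds 0.0323%, and the Tet2 allele averaged over both Nras backgrounds 0%. A looser description is the count at an unadjusted p under 0.05. It held 1 of 10 members, Ezh2, for NrasG12D/+ against wild type (5.61% of all genes), and 1 of 10, again Ezh2, for the averaged NrasG12D allele (7.24%). It held Ezh1 for the double mutant against Tet2+/- (5.45%). No member was under it in Tet2+/- against wild type (3.35% of all genes), the double mutant against wild type (6.42%), the double mutant against NrasG12D/+ (4.04%), the interaction (3.38%) or the averaged Tet2 allele (3.81%). The 3 comparisons with wild type share its libraries, and those with the double mutant share its libraries too.

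Complete separation of the libraries is a description of another kind. Between NrasG12D/+ and wild type no member had groups that did not overlap, against 9.74% of all genes. In Tet2+/- against wild type, Ring1 alone was separated, upward (9.25% of all genes). In the double mutant, Asxl1 lay above and Ezh1 below every wild-type library (11.2%). Against NrasG12D/+, the double mutant had Asxl1, Bmi1 and Ring1 above and Ezh1 and Ezh2 below, 5 of 10 members where 8.48% of all genes were separated. Against Tet2+/-, it had Ezh2 above and Ezh1 below (12.7%). With 6 libraries on each side, no member was separated by the NrasG12D allele (0.846% of all genes) or by the Tet2 allele (0.129%). The median difference of the 10 genes ran from -0.02 to 0.18 on the log2 scale over the 8 comparisons, and that of all genes from -0.05 to 0.04.

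**Figure D1:**
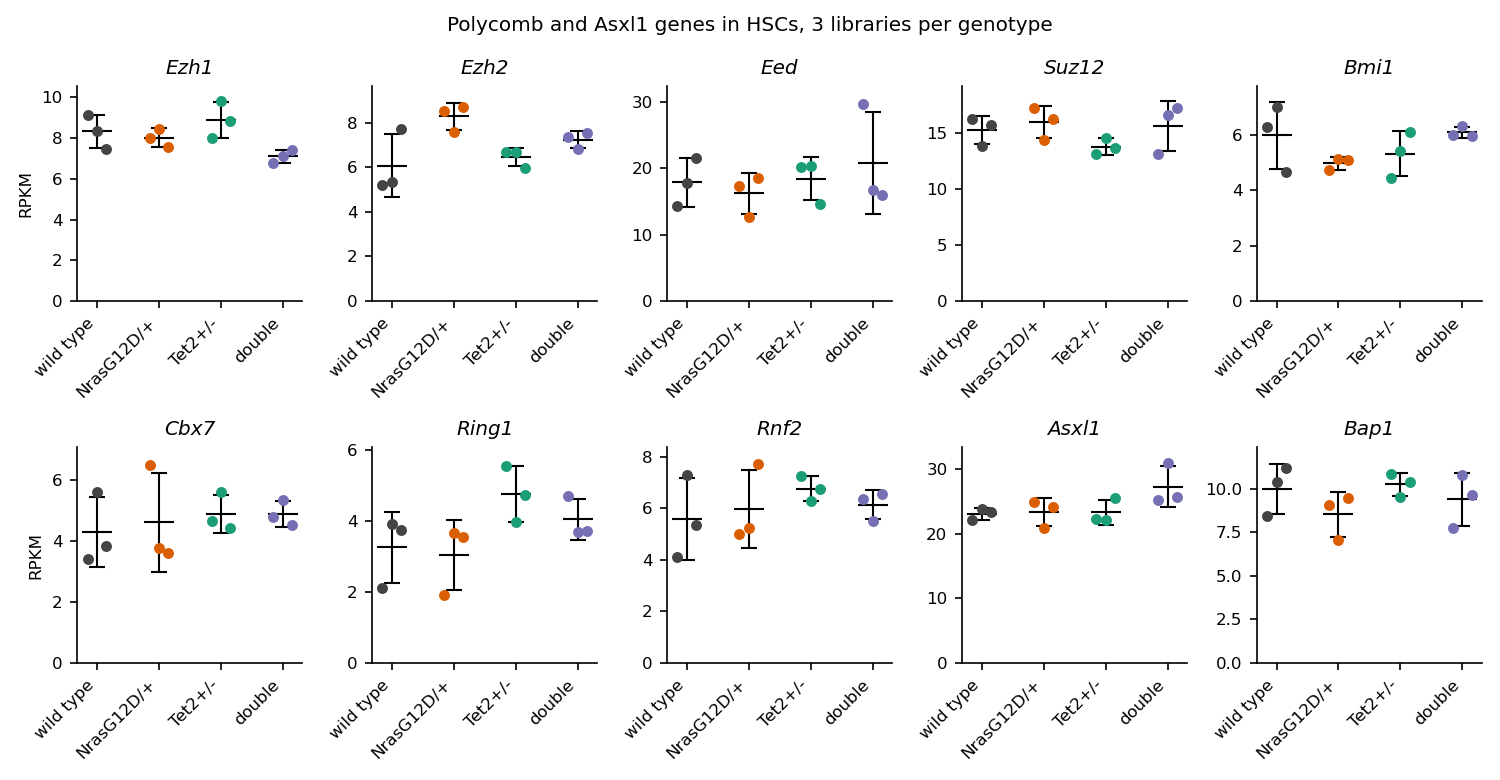
RPKM (vertical axes, from 0) of the 10 genes in each library, by genotype; points are libraries, and the bar with whiskers is the mean with 1 SD (n = 3). Ezh2 is highest in NrasG12D/+ at 7.59 to 8.71 RPKM, and Ezh1 is lowest in the double mutant at 6.79 to 7.40. Eed, Suz12, Cbx7 and Rnf2 overlap between all genotypes.

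Ezh2, the main H3K27 methyltransferase of dividing cells, had the clearest tilt toward the NrasG12D libraries. Its level was 5.19, 5.33 and 7.72 RPKM in the wild-type libraries and 8.55, 7.59 and 8.71 in NrasG12D/+. It was 6.70, 6.69 and 5.99 RPKM in Tet2+/- and 7.35, 6.83 and 7.54 in the double mutant. Wild-type replicate 3 lay among the mutant libraries and above 1 NrasG12D/+ library, so these groups overlapped, whereas every double mutant library exceeded every Tet2+/- library. NrasG12D/+ against wild type gave a log2 difference of 0.47 (SE 0.18, 95% interval 0.08 to 0.86, adjusted p = 0.87, limma). The double mutant differed from Tet2+/- by 0.16 (interval -0.23 to 0.56), from wild type by 0.27 (-0.12 to 0.67; 0.17 without wild-type replicate 1 and 0.46 without replicate 3) and from NrasG12D/+ by -0.19 (-0.59 to 0.20). Averaged over Tet2 backgrounds, the NrasG12D difference was 0.32 (SE 0.12, interval 0.04 to 0.59, adjusted p = 0.61).

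The Ezh2 values moved with proliferation genes. Summed over a list of 18 such genes (among them Mki67, Top2a and Cdk1), the level was 472 to 492 RPKM in NrasG12D/+ and 433 to 504 in the double mutant, against 272 to 375 in wild type and 292 to 346 in Tet2+/-. All 18 had a positive averaged NrasG12D difference (48.9% of all genes did), with a median of 0.58 on the log2 scale against -0.01 for all genes. Of the 18, 1 passed the test (0.0323% of all genes did). It was Top2a, the topoisomerase that untangles replicated DNA (0.76, SE 0.09, adjusted p = 0.038). Over the 12 libraries, which share depth and genotype, the correlation of Ezh2 with these genes had a median of 0.41 and was positive for 18 of 18. With genotype means removed the median was 0.18. Suz12 was positive for 16 of 18 (median 0.30, and 0.09 with genotype means removed). Asxl1 had a median of 0.14 and Eed of 0.10, or 0.20 for Eed with genotype means removed. Ezh1, Bmi1, Cbx7, Ring1, Rnf2 and Bap1 had negative medians, lowest for Bap1 at -0.43. The 4 megakaryocyte markers given above were also higher in sum in all 6 NrasG12D carriers than in the other 6 libraries. The part of either in the Ezh2 difference was not tested.

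Ezh1, the paralog that predominates in quiescent and differentiated cells, ran the other way in the double mutant. Wild-type libraries had 9.14, 8.37 and 7.49 RPKM, and NrasG12D/+ libraries 8.02, 8.47 and 7.54. Tet2+/- libraries had 8.02, 9.81 and 8.82 RPKM and double mutant libraries 6.79, 7.12 and 7.40, the 3 lowest of the 12. Against Tet2+/- the double mutant differed by -0.32 (SE 0.14, interval -0.63 to -0.01, adjusted p = 0.90), against wild type by -0.23 (interval -0.53 to 0.08) and against NrasG12D/+ by -0.17 (-0.48 to 0.13). NrasG12D alone gave -0.05 (-0.36 to 0.25) and Tet2 loss alone 0.09 (-0.21 to 0.40). The interaction, which asks whether the alleles together depart from the sum of their separate differences, was -0.26 (-0.70 to 0.17, adjusted p = 0.996), so a departure was not detected at this number of libraries.

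Set against each other within a library, Ezh2 over Ezh1 was 0.57, 0.64 and 1.03 in wild type and 0.84, 0.68 and 0.68 in Tet2+/-. It was 1.07, 0.90 and 1.16 in NrasG12D/+ and 1.08, 0.96 and 1.02 in the double mutant. Wild-type replicate 3 thus sat with the NrasG12D carriers, and the other 5 libraries without the allele were lower than all 6 with it. The ratio itself depends on the gene lengths used. With GENCODE exon lengths in place of those behind the deposited RPKM, it ran from 0.70 to 1.26 in wild type, 0.83 to 1.03 in Tet2+/-, 1.10 to 1.42 in NrasG12D/+ and 1.18 to 1.33 in the double mutant. The order of libraries is the same on both scales, since 1 factor multiplies them all.

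**Figure D2:**
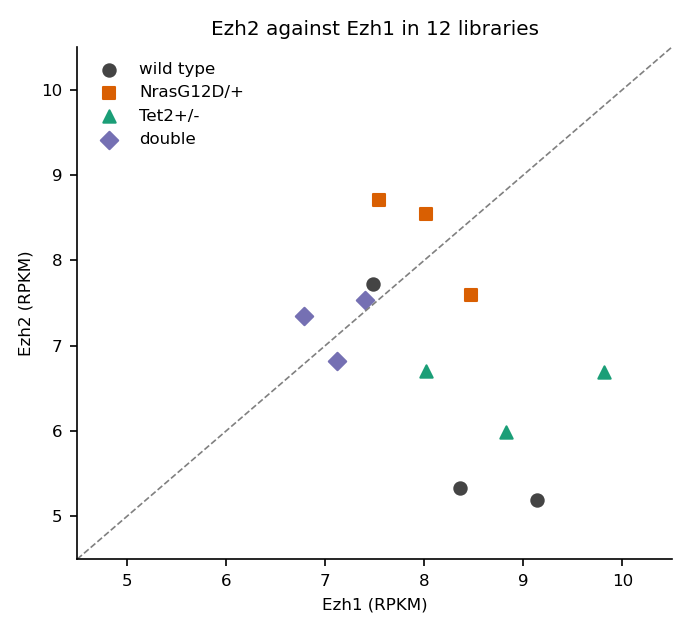
Ezh2 against Ezh1 in the 12 libraries, both axes in deposited RPKM (not starting at 0), with the dashed line marking equal values; each point is a library. The NrasG12D/+ and double mutant libraries lie near or above the line, and the Tet2+/- and all but 1 of the wild-type libraries lie below it.

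The start regions of this paralog pair are shown because their estimates in the double mutant against Tet2+/- had opposite signs (Ezh2 0.16, Ezh1 -0.32). Neither estimate passed the adjusted threshold. Each sequence runs 5′ to 3′ on the gene's own strand from 250 bases before to 50 bases after the RefSeq start (GRCm38.p6, the same assembly as mm10). Capitals mark an E2F-like motif (TTTNNCGC), a CCAAT box (CCAAT) or a cell cycle homology region (CHR, TTTGAA), each searched on both strands, so that ATTGG is a CCAAT box on the other strand.
Ezh2, chr6:47594981-47595280, minus strand: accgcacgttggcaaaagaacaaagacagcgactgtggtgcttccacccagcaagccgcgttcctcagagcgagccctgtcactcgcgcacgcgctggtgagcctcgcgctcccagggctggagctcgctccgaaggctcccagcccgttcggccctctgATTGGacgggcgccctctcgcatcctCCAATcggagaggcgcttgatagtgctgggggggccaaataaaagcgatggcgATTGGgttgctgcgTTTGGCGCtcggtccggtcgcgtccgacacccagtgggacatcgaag
Ezh1, chr11:101226414-101226713, minus strand: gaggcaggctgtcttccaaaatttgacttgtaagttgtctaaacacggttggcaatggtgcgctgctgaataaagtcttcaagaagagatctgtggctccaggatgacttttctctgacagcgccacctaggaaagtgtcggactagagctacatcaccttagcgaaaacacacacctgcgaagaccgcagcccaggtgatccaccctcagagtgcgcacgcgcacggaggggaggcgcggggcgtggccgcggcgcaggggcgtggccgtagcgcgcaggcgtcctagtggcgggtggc
In the Ezh2 window the E2F-like motif began at position 4, with the first transcribed base as 1, and the CCAAT boxes at -90, -64 and -11. The Ezh1 window held none of these motifs. Among 32851 mouse windows of 300 bases, 5.17% held the E2F-like motif, 37.4% a CCAAT box, 3.37% at least 3 CCAAT boxes and 17.9% the CHR. Of the other 8 genes, all of which had a RefSeq window, Suz12 held an E2F-like motif at -219, a CHR at -203 and a CCAAT box at -61. Asxl1 held an E2F-like motif at -173 and a CHR at -39, Eed a CCAAT box at 26 and a CHR at -197 and -183, and Cbx7 a CCAAT box at -190 and a CHR at -54. Bmi1, Ring1, Rnf2 and Bap1 held none. These are letter matches, no binding was measured, and a part of the motifs in the levels was not tested.

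Eed, the subunit that binds trimethylated H3K27 and stimulates the enzyme, varied widely within genotypes. It stood at 14.3, 17.7 and 21.6 RPKM in wild type, 17.3, 12.7 and 18.6 in NrasG12D/+, 20.2, 20.4 and 14.6 in Tet2+/- and 29.7, 16.7 and 16.0 in the double mutant. Double mutant replicate 1 was the highest of all libraries, and the other 2 of that genotype lay within the wild-type range. The averaged NrasG12D difference was 0.00 (interval -0.42 to 0.42) and the Tet2 difference 0.18 (-0.24 to 0.60). With 1 library left out the latter ran from 0.04, without double mutant replicate 1, to 0.26.

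Suz12, the scaffold that holds PRC2 together, was among the steadiest genes. Its level was 16.3, 13.9 and 15.7 RPKM in wild type, 17.3, 14.4 and 16.2 in NrasG12D/+, 13.1, 14.6 and 13.7 in Tet2+/- and 13.1, 16.6 and 17.2 in the double mutant. All 4 genotypes overlapped. The averaged NrasG12D difference was 0.12 (-0.09 to 0.33), and the Tet2 difference -0.09 (-0.30 to 0.12). Omitting double mutant replicate 1 gave 0.18 and -0.03, and over all single omissions they ran from 0.08 to 0.18 and from -0.13 to -0.03. Both intervals from all 12 libraries exclude a change of 1 log2 unit in either direction, as do both of every other member but Ring1, whose Tet2 interval reaches 1.05.

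Among the PRC1 genes, Bmi1, which stimulates the Ring1 and Rnf2 ligases and represses the Ink4a/Arf locus, was tightest in the NrasG12D genotypes. It stood at 6.27, 7.01 and 4.66 RPKM in wild type and 4.71, 5.12 and 5.10 in NrasG12D/+. Tet2+/- libraries had 4.45, 5.43 and 6.08 RPKM and double mutant libraries 6.00, 6.32 and 5.96. The double mutant lay above NrasG12D/+ in all 3 libraries (log2 difference 0.29, interval -0.14 to 0.73, adjusted p = 1) and overlapped wild type and Tet2+/-. Bmi1 had the largest interaction estimate of the 10 genes, 0.45 (SE 0.28, interval -0.16 to 1.07, adjusted p = 0.996).

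Ring1, 1 of the 2 alternative ligases, was the lowest of the 10 genes and the most variable. Wild-type libraries had 2.11, 3.92 and 3.75 RPKM and NrasG12D/+ libraries 1.91, 3.66 and 3.55. Tet2+/- libraries had 5.55, 3.96 and 4.74 RPKM and double mutant libraries 4.71, 3.69 and 3.71. The lowest wild-type value rests on 209 reads, whose exact 95% Poisson interval of 1.83 to 2.41 RPKM (counting error only) stays below the other 2 wild-type libraries. Every Tet2+/- library was above every wild-type library, Tet2+/- replicate 2 only narrowly. The difference was 0.58 (SE 0.34, interval -0.17 to 1.34, adjusted p = 1), and without wild-type replicate 1 it was 0.30. Averaged over Nras backgrounds the Tet2 difference was 0.52 (SE 0.24, interval -0.01 to 1.05, adjusted p = 0.96), the largest allele difference among the 10 genes.

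Rnf2 (also called Ring1B), the other ligase, stood at 4.12, 7.30 and 5.34 RPKM in wild type, 4.99, 5.24 and 7.71 in NrasG12D/+, 7.25, 6.29 and 6.76 in Tet2+/- and 6.35, 5.51 and 6.57 in the double mutant. The ranges of all 4 genotypes overlapped. The NrasG12D difference averaged -0.02 (-0.40 to 0.36) and the Tet2 difference 0.19 (-0.19 to 0.57). Leaving out 1 library moved the latter between 0.09 (wild-type replicate 1 omitted) and 0.30 (replicate 2 omitted). Wild-type replicate 1 had the lowest Rnf2 value of the 12 libraries and the lowest Ring1 value of its genotype. Over the 12 libraries Rnf2 and Ring1 correlated at 0.73.

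Cbx7, a chromodomain protein that tethers canonical PRC1 to H3K27me3 in HSCs, stood at 3.42, 5.60 and 3.84 RPKM in wild type and 6.50, 3.75 and 3.61 in NrasG12D/+. Tet2+/- libraries had 4.64, 5.61 and 4.44 RPKM and double mutant libraries 4.80, 5.36 and 4.52. NrasG12D/+ replicate 1 was the highest of the 12, and the other 2 of its genotype were near the bottom. The averaged differences were 0.04 for NrasG12D (-0.39 to 0.48) and 0.18 for Tet2 (-0.26 to 0.61). The Tet2 value ran from 0.10 to 0.31 with 1 library left out, the ends being those that omit NrasG12D/+ replicates 3 and 1.

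Asxl1, the cofactor that activates Bap1, was the most abundant of the 10 on the deposited scale and differed little between single mutants and wild type. Wild-type libraries had 22.1, 23.9 and 23.3 RPKM, NrasG12D/+ libraries 24.98, 20.9 and 24.2, and Tet2+/- libraries 22.4, 22.1 and 25.5. Double mutant libraries had 25.3, 31.0 and 25.7 RPKM, above every wild-type and every NrasG12D/+ library and overlapping Tet2+/-. The double mutant differed from wild type by 0.24 (SE 0.12, interval -0.02 to 0.50, adjusted p = 0.77). Its difference was 0.22 from NrasG12D/+ (-0.03 to 0.48) and 0.23 from Tet2+/- (-0.03 to 0.48). NrasG12D alone gave 0.01 (-0.25 to 0.27) and Tet2 loss alone 0.01 (-0.25 to 0.27), and the interaction was 0.21 (-0.15 to 0.58, adjusted p = 0.996). Double mutant replicate 2 carried much of the size: without it the difference was 0.14 from wild type, 0.13 from NrasG12D/+ and 0.13 from Tet2+/-.

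Bap1, the catalytic deubiquitinase, stood at 8.40, 10.4 and 11.2 RPKM in wild type, 9.06, 7.04 and 9.47 in NrasG12D/+, 10.8, 9.52 and 10.4 in Tet2+/- and 7.72, 10.8 and 9.62 in the double mutant. NrasG12D/+ replicate 2 was the lowest, and all genotypes overlapped with wild type. Its averaged NrasG12D difference was -0.19 (-0.47 to 0.10) and its Tet2 difference 0.09 (-0.19 to 0.37). Over single omissions they ran from -0.25 to -0.12 and from 0.02 to 0.16. The value of -0.12 and that of 0.16 omit double mutant replicate 1, and that of 0.02 omits NrasG12D/+ replicate 2.

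**Figure D3:**
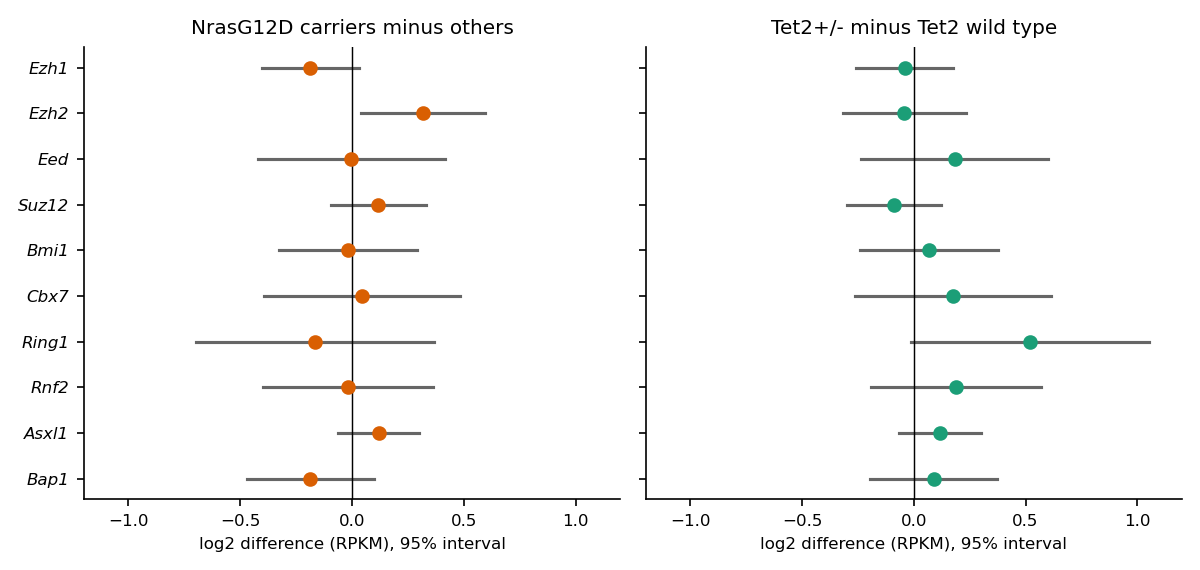
Log2 difference (horizontal axis) with its 95% interval (line) for each of the 10 genes, for the NrasG12D allele averaged over both Tet2 backgrounds (left) and the Tet2 allele averaged over both Nras backgrounds (right); 6 libraries stand on each side, fitted with limma. Only the interval of Ezh2 under NrasG12D, 0.04 to 0.59, leaves out 0, and its adjusted p is 0.61.

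The spread within genotypes set how finely each gene could be read. Ezh1 (SD 0.12 on the log2 scale), Asxl1 (0.13), Suz12 (0.15) and Ezh2 (0.18) were the tightest. Bmi1 (0.19), Bap1 (0.21), Rnf2 (0.28) and Cbx7 (0.32) followed, and Eed (0.35) and Ring1 (0.40) were widest. All 10 were below the median of the tested genes, 0.49. Reads per library ran from 209 to 934 for Ring1 and from 3777 to 8970 for Asxl1.

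By deposited RPKM over the 12 libraries, the order of levels was Asxl1 (24.3), Eed (18.3), Suz12 (15.2), Bap1 (9.54), Ezh1 (8.08), Ezh2 (7.02), Rnf2 (6.12), Bmi1 (5.59), Cbx7 (4.68) and Ring1 (3.77). Of neighbours in that order, only Suz12 and Bap1 did not overlap in their ranges. The lengths behind these values depart from GENCODE exon unions, being 2.66 times the union for Ezh2 and 0.66 times for Eed. On the exon-union length, an alternative added after the values were seen, the order was Suz12 (33.7 RPKM), Asxl1 (27.8), Bap1 (23.6), Ezh2 (18.7), Ezh1 (17.6), Rnf2 (14.8), Bmi1 (12.4), Eed (12.1), Cbx7 (11.2) and Ring1 (5.77). Eed moved from second to eighth place, Ring1 stayed last, and differences of 1 gene between genotypes are the same on both scales.

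The spans of some of these genes overlap those of other genes. The strand setting of the counting is not given in the sources used here. The span of Ezh2 shares 5039 bases with the opposite-strand lincRNA gene Gm26625, listed at up to 2.08 RPKM. That of Suz12 shares 12515 bases with Gm26563, listed at up to 0.99 RPKM. Rnf2 shares 3029 bases with Gm36527 on the same strand, at 0.49 to 6.93 RPKM. Asxl1 (2500004C02Rik), Cbx7 (Apobec3) and Eed (Gm45120 and E230029C05Rik) overlap their neighbours by fewer bases. Overlap of exons alone was not measured, and reads in any shared exons could belong to either gene.

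Other subunits and opponents of the complexes were taken from lists of known components. None of the 8 tested PRC2 partners passed the test in any comparison. At an unadjusted p under 0.05, 2 of 8 were higher for the averaged NrasG12D allele (7.24% of all genes in either direction) and 1 of 8 was lower for the Tet2 allele (3.81%). For the averaged NrasG12D allele 5 of 8 had a positive difference, with a median of 0.13 against -0.01 for all genes. Phf19, a Tudor-domain subunit that guides PRC2 to H3K36-methylated chromatin, stood at 1.52 ± 0.75 RPKM in wild type, 3.02 ± 0.53 in NrasG12D/+, 2.50 ± 0.50 in Tet2+/- and 3.07 ± 0.15 in the double mutant (SD, n = 3). Its averaged NrasG12D difference was 0.70 (SE 0.26, adjusted p = 0.58), and NrasG12D/+ did not overlap wild type, as for 9.74% of all genes. Its relative Phf1 lay the other way, with all 3 NrasG12D/+ libraries (9.48, 9.28 and 7.59 RPKM) below all 3 of wild type (15.5, 15.2 and 11.9) and a log2 difference of -0.69 (SE 0.23, adjusted p = 0.86). The double mutant, at 8.30 to 12.5 RPKM, overlapped wild type for Phf1. Averaged over Tet2 backgrounds, the NrasG12D difference of Phf1 was -0.36 (SE 0.16, interval -0.73 to 0.002, adjusted p = 0.70). Epop, a PRC2 cofactor listed under its older symbol E130012A19Rik, differed by 1.38 for NrasG12D (SE 0.54, adjusted p = 0.61), with libraries from 0.44 to 4.68 RPKM. Rbbp4, a histone-binding subunit also found in other complexes, differed by -0.27 for the Tet2 allele (SE 0.10, adjusted p = 0.96).

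All 21 PRC1 partners were tested and none passed, while at an unadjusted p under 0.05 there was 1 of 21 in each direction for NrasG12D, near the 7.24% of all genes, and 0 for Tet2 (3.81%). Cbx6, a further chromodomain subunit, was the only partner gene that was separated by the NrasG12D allele over all 12 libraries (0.846% of all genes were). It stood at 18.2 to 20.6 RPKM in wild type and 18.2 to 19.7 in Tet2+/-, against 15.2 to 17.4 in NrasG12D/+ and 11.1 to 17.9 in the double mutant, a difference of -0.31 (SE 0.11, adjusted p = 0.55). Bcor, the corepressor of a variant PRC1, stood at 6.08 to 6.40 RPKM in wild type and 6.97 to 7.365 in NrasG12D/+. It stood at 5.70 to 7.61 RPKM in Tet2+/- and 7.48 to 8.98 in the double mutant, which overlapped each other. NrasG12D/+ and the double mutant lay above wild type (9.74% and 11.2% of all genes were separated), and the double mutant above NrasG12D/+ (8.48%). The averaged NrasG12D difference of Bcor was 0.28 (SE 0.11, adjusted p = 0.61). Cbx2 was lower in the double mutant (3.86, 1.48 and 4.08 RPKM) than in every other library (4.33 to 6.12), with log2 differences of -0.78 from wild type, -0.97 from NrasG12D/+ and -1.04 from Tet2+/- and adjusted p of 0.77, 1 and 0.80. The double mutant was so separated from these groups for 11.2%, 8.48% and 12.7% of all genes.

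The 8 tested PR-DUB partners, which bind Bap1 or Asxl proteins, moved little. Their averaged NrasG12D differences ran from -0.13 to 0.09 and their Tet2 differences from -0.21 to 0.36, with none passing and 0 of 8 at an unadjusted p under 0.05 for either allele (7.24% and 3.81% of all genes). Ogt, the O-GlcNAc transferase, differed by 0.17 for Tet2 (SE 0.10) and Mbd6 by 0.36 (SE 0.25), both at an adjusted p of 0.96.

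Of 13 genes for H3K27 demethylases and Trithorax proteins, which counter Polycomb, none passed, and 1 of 13 was lower for NrasG12D at an unadjusted p under 0.05, near the 7.24% of all genes. Rbbp5, a core subunit of the H3K4 methyltransferases, stood at 8.66, 6.86 and 8.44 RPKM in wild type and at 4.17 to 6.36 in the 9 mutant libraries, which did not overlap it. Such separation from wild type held for 9.74% of all genes in NrasG12D/+, 9.25% in Tet2+/- and 11.2% in the double mutant. The differences were -0.56 for NrasG12D/+, -0.47 for Tet2+/- and -0.64 for the double mutant, all against the same 3 wild-type libraries, with adjusted p of 0.87, 1 and 0.75. Wdr5, its partner, differed by 0.36 for NrasG12D (SE 0.18, adjusted p = 0.73).

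Of 20 listed genes reported elsewhere as Polycomb targets, 11 had a row and 9 were tested, and none passed. For NrasG12D 1 of 9 was lower at an unadjusted p under 0.05 (7.24% of all genes). For the Tet2 allele 8 of 9 had a positive difference, as did 52.5% of all genes. The median was 0.22 against 0.02 for all genes, with a lowest adjusted p of 0.96. Among the 8, Id2 (1.05, SE 2.51) and Lin28b (0.60, SE 2.87) had libraries at 0 reads, and Hoxa7 differed by only 0.014. For NrasG12D 3 of 9 were positive (48.9% of all genes), with a median of -0.07. Cdkn1c, which encodes the cell cycle inhibitor p57, had 7.39 ± 2.22 RPKM in wild type, 3.86 ± 2.24 in NrasG12D/+, 8.23 ± 1.79 in Tet2+/- and 6.22 ± 2.82 in the double mutant (SD, n = 3). Its averaged NrasG12D difference was -0.80 (SE 0.36, adjusted p = 0.69). Hoxa7, a homeobox gene, differed by -0.28 (SE 0.13, adjusted p = 0.72), with wild-type replicate 1 far above the rest at 21.2 RPKM against 10.6 to 14.8.

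**Figure D4:**
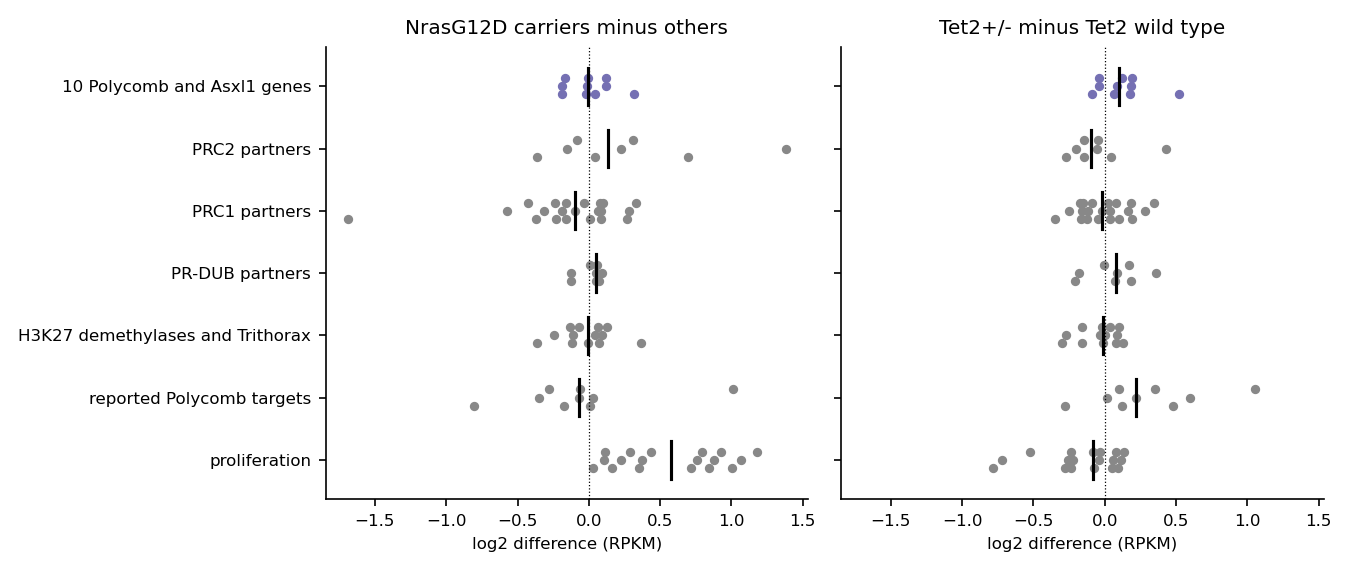
Log2 difference (horizontal axes, same scale) of each tested gene by list, for the NrasG12D allele (left) and the Tet2 allele (right), each averaged over the other allele; points are genes and black bars medians. The 18 proliferation genes all lie right of 0 under NrasG12D with a median of 0.58, while the 10 genes have medians of -0.01 (NrasG12D) and 0.10 (Tet2).

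Within the 10 genes, the strongest negative correlations over the 12 libraries were between Suz12 and Ring1 (-0.73), Ezh2 and Bmi1 (-0.66) and Ezh1 and Asxl1 (-0.59). Across all tested genes, the profile most like Ezh2 was that of Ipo5, a nuclear import receptor (r = 0.90), followed by Fam46a (0.86) and Lrr1 (0.85). For Ezh1 it was Cd24a, a surface glycoprotein (0.90), followed by Stk25 (0.86) and Chmp2b (0.83). Suz12 was most like Aurkb, a mitotic kinase (0.86), followed by Golt1b (0.86) and Ndufaf4 (0.85), and Bmi1 like Isca2 (0.94), Magohb (0.84) and Eml4 (0.82). Asxl1 followed Plscr3, Zmym1 and Slc20a1 (0.87, 0.87 and 0.86). Bap1 followed Znrf2, Rnf185 and Sod1 (0.90, 0.89 and 0.89), and Eed followed Rprd1b, Atp5j2 and Ccdc18 (0.90, 0.89 and 0.86). Ring1 was closest to Kctd21, Fgf3 and Calml4 (0.95, 0.92 and 0.91), Rnf2 to Rbmx2, Zhx1 and mt-Nd2 (0.90, 0.88 and 0.87), and Cbx7 to Prr12, C2cd2 and Zfp40 (0.86, 0.85 and 0.84). These correlations are the highest among 15478 genes on 12 libraries that share genotype and depth, and they are given as a description only. Some rest on values near the floor, which weigh heavily on the log2 scale. Kctd21, Fgf3 and Calml4 fell to 0.002927, 0.002995 and 0.00549 RPKM in both wild type and NrasG12D/+, and Lrr1 to 0.005783 in wild type.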

How the data were processed

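SLAM HSC RNA of 4 genotypes was sequenced, 3 libraries each. The authors deposited log2 RPKM per gene and library; the submitters' processing notes name CASAVA 1.8.2, TopHat2 and mm10 among others, with no further settings. From the deposited values, whole reads were recovered for 18546 of 18546 genes (tolerance 0.001 reads, with 0.25 prior reads added before the log), and these gave the depth and the counting intervals. The main test was limma 3.58.1 (R 4.3.3) with a variance trend on the deposited log2 values, across all 15478 genes with an RPKM of at least 1 in at least 3 libraries. It fitted 1 mean per genotype (8 residual degrees of freedom), was two-sided, and used Benjamini-Hochberg adjustment with a threshold of 0.05. The fit was tested on simulated data. Fold changes are log2 differences of RPKM with the authors' small prior, and RPKM is printed after removing the log. Depth per library was 19205045 to 36890942 reads.

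The members and lists were chosen with earlier results of these data known. In each list the 2 to 4 genes with the smallest unadjusted p for either averaged allele were named, with some of their values in other comparisons. For likeness, the 3 genes with the highest Pearson correlation were named, clone-like symbols left out. Same-numbered libraries of different genotypes correlated weakly in their deviations from the genotype means (-0.125 to 0.136, median 0.0313, over 18 pairs). Differently numbered libraries gave -0.143 to 0.162 (median -0.0166, over 36 pairs). These values do not settle whether the numbers pair the libraries. Alternatives covered normalization, filter, pseudocount, variance model, weights, voom on recovered reads, replicate block, each library left out and, added after seeing the data, sex as a covariate and exon-union lengths. Sequences are RefSeq's, GRCm38.p6.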

Additional observations from a re-analysis of the deposited data

How the results depend on the processing

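None of the 10 genes passed the adjusted threshold in any comparison under any of the 23 alternatives, and the lowest adjusted p of a member was 0.397 (Ezh2, averaged NrasG12D allele, library quality weights). Of 646 recomputed differences, 619 kept their direction, and 21 of 29 named differences never turned. The Ezh2 difference of NrasG12D/+ from wild type ran from 0.37 without wild-type replicate 1 to 0.65 without wild-type replicate 3. Differences near 0 turned for the averaged NrasG12D allele. Eed was 0.0043 with median-centred libraries, 0.016 with quality weights, 0.011 with sex as a covariate (added after seeing the data) and 0.0052 without wild-type replicate 1 and NrasG12D/+ replicate 2 together, and ran from -0.146 to 0.0803 with 1 library left out. Bmi1 was 0.026 with voom and ran from -0.104 to 0.0433, Cbx7 was -0.089 with quality weights and ran from -0.092 to 0.15, and Rnf2 ran from -0.116 to 0.0902. For the averaged Tet2 allele, Ezh1 was 0.018 with quality weights and 0.015 without both those libraries, and Bap1 was -0.037 without them. With 1 library left out, Ezh2 ran from -0.093 to 0.051 and Bmi1 from -0.018 to 0.13. The cause was not tested. Whether replicate numbers pair the libraries was not settled. With a replicate block 0 members were called in each comparison, with an averaged NrasG12D difference of 0.32 for Ezh2 (adjusted p = 0.60). With 3 libraries a genotype, the averaged intervals of Ring1 were wide, -0.70 to 0.37 for NrasG12D and -0.01 to 1.05 for Tet2. Differences inside each interval are compatible with these values.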
